A study of Canis lupus familiaris with 12 samples.

Results

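The genes followed here are the classical cadherins CDH1, CDH2 and CDH6, which encode E-cadherin, N-cadherin and cadherin-6. Their probes were chosen by the gene symbol in the platform annotation: 3 genes of 4325, held by 5 clones of 5152 and 10 spots of 13056, with 2 spots per clone. CDH1 had 3 clones, called clone 1 (spots 842 and 12167), clone 2 (spots 1882 and 11231) and clone 3 (spots 3604 and 9493). CDH2 had 1 clone (spots 6223 and 6858) and CDH6 had 1 clone (spots 504 and 12561). The arrays carried spotted human cDNA clones, while the RNA came from MDCK, an epithelial cell line of dog kidney.

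MDCK cells transfected with Snail, with Slug or with E47 were each hybridised against MDCK-CMV control cells on 2-colour arrays. Each transfectant had samples numbered 1 and 2, and each sample was run once with the transfectant in Cy5 and once with it in Cy3, so there were 4 arrays per transfectant and 12 in all. The labels do not give the constructs, the number of cell clones behind a transfectant, or whether the control RNA was 1 pool. They do not say that samples 1 and 2 were separate cultures either, so the p-values below measure only the spread between these samples. Except where stated, that spread was pooled over the transfectants and moderated towards the spread of all clones. The variation of the control cells themselves does not enter a ratio set against 0.

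Cadherins are calcium-dependent adhesion molecules whose cytoplasmic tails bind catenins and thereby the actin cytoskeleton. E-cadherin holds epithelial cells together at adherens junctions, N-cadherin is typical of neural and mesenchymal cells, and cadherin-6, first described as K-cadherin, is found in fetal kidney and in renal tumours. Snail and Slug are zinc-finger factors and E47 is a basic helix-loop-helix product of TCF3. All are known to bind E-boxes of the E-cadherin promoter and to repress CDH1 in epithelial cells.

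All values are log2 ratios of a transfectant over control, with the sign turned on 5 of the 12 arrays (both arrays of Snail 2 and of Slug 1, and the array of E47 2 titled Cy5). The dye of each transfectant is labelled, but which channel was the numerator is not. Before turning, 11 of the 18 pairs of arrays within a transfectant correlated between -0.74 and -0.37 over all probes, and the 2 arrays of a Snail or Slug sample, which carried opposite dyes, ran the same way. After turning, and with the misplaced rows described next put back, the pairs correlated between 0.34 and 0.83. The turning made CDH1 low in each transfectant, so a fall of CDH1 is an assumption here, and so is every other direction against control. With the opposite assumption for a transfectant, all its ratios change sign. What does not depend on it is whether CDH2 or CDH6 stood on the same side of 0 as CDH1 within a transfectant.

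Part of the table used here stood beside the wrong probes. On 5 arrays, stretches of the table were displaced by multiples of 110 rows: 18370 cells, or 11.7% of the table, and 2200 to 5940 cells on each of those arrays. On the Snail 2 array titled Cy3, for example, the values in rows 1541 to 2310 matched the probes 2090 rows later. The median correlation of a displaced page of 110 rows with the other arrays of its transfectant was between -0.01 and 0.00 as deposited, and between 0.52 and 0.89 on each array when the pages were put back. Duplicate spots of a clone, whose agreement was not used to find the displacement, correlated between -0.07 and 0.06 in those stretches as deposited and between 0.76 and 0.92 after they were put back. Elsewhere on the 12 arrays this correlation lay between 0.66 and 0.85.

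**Figure D1:**
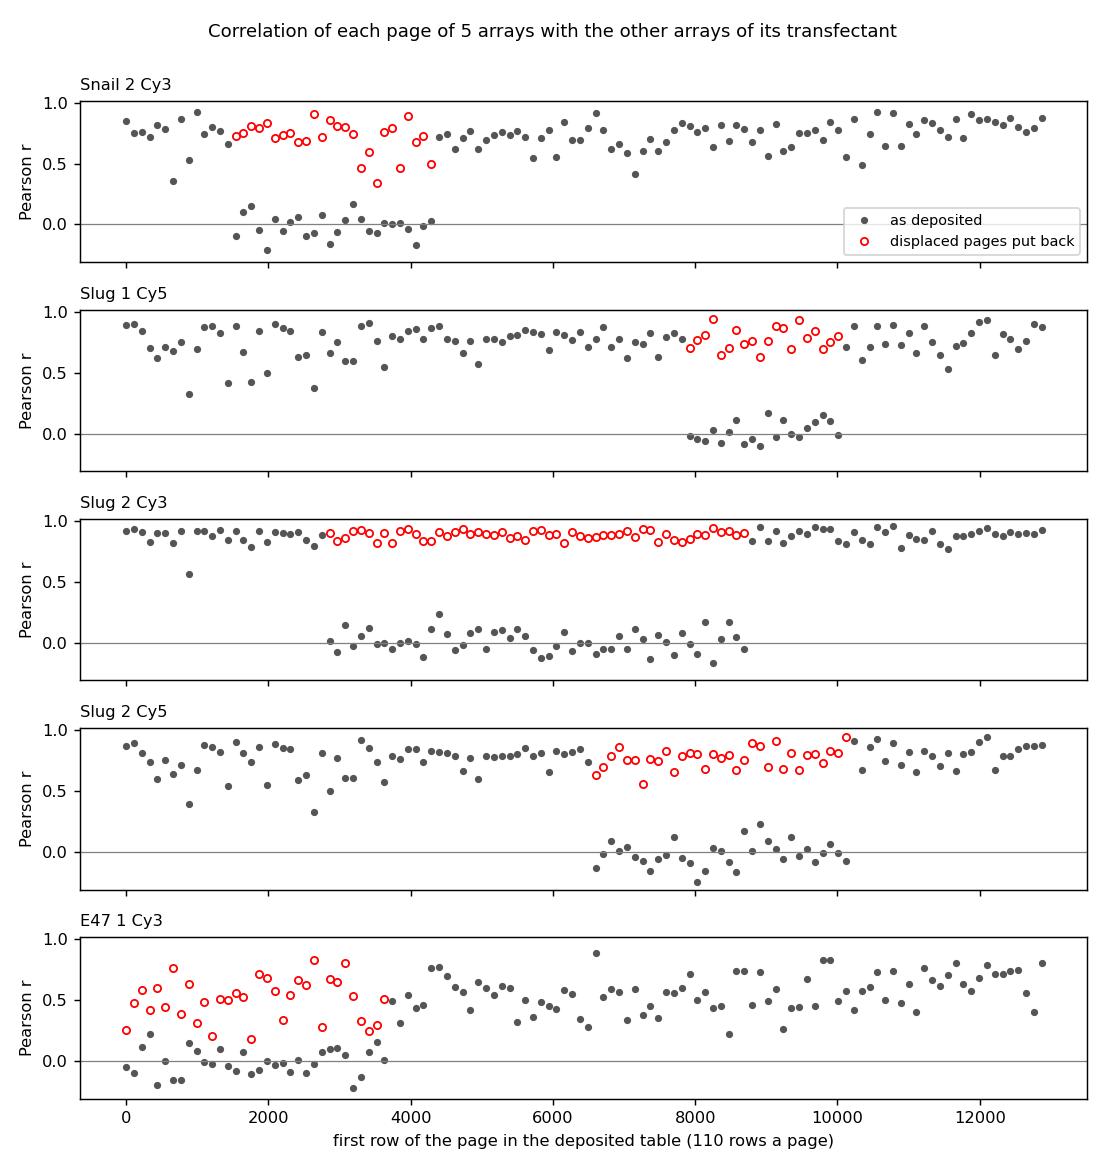
Pearson correlation (vertical axis) of each page of 110 rows with the other arrays of the same transfectant, against the first row of the page in the deposited table (horizontal axis), for the 5 arrays with displaced stretches. Grey points are the table as deposited, and open red circles are the displaced pages after they were put back. The grey points of the displaced stretches lie around 0 (array medians from -0.01 to 0.00), and the red circles lie among the other pages (array medians from 0.52 to 0.89).

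The cadherins were touched by this: of their 120 cells, 12 were displaced, 3 were empty and 105 were used. The displaced cells lay in 7 of the 10 spots and in all 5 clones. Spot 1882 of CDH1 clone 2 read 0.20 on the Snail 2 array titled Cy3 as deposited and -4.39 after it was put back, while its partner spot 11231 read -4.29 on that array. Spot 842 of CDH1 clone 1 read 0.48 on the E47 1 array titled Cy3 as deposited and -3.59 put back, beside -3.31 at spot 12167. Spot 504 of CDH6 read -0.48 on that E47 array as deposited and 0.91 put back, beside 1.22 at spot 12561. In these examples the value put back lay near that of the partner spot, which was not so in every case: spot 9493 of CDH1 clone 3 read -0.33 put back on Slug 2 titled Cy5, beside 0.91 at spot 3604. The values below leave displaced cells out. For the CDH1, CDH2 and CDH6 clones, values put back or as deposited are given where the call differs, and gene lists were also computed with the cells put back.

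The replicate value of a clone was the mean of the 2 arrays of a numbered sample. Replicate values of samples 1 and 2 correlated over clones at 0.69 for Snail, 0.92 for Slug and 0.79 for E47. SNAI1, the gene of Snail, was at 0.85 to 3.24 on 7 spot values of the Snail arrays, at 0.01 to 1.13 on 8 of the Slug arrays and at -0.34 to 0.67 on 7 of the E47 arrays. TCF3, the gene of E47, was at -0.04 to 0.19 in Snail cells (5 spot values), at 0.77 to 1.47 in Slug cells (8) and at 0.52 to 0.98 in E47 cells (6). No probe carried the symbol SNAI2, the gene of Slug. Ratios alone cannot show whether MDCK cells expressed epithelial markers, so the label of the line was not checked against levels.

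CDH1 clones 1 and 2 were the low ratios on every array, by the assumption above. Clone 1 averaged -2.88 ± 0.36 in Snail cells, -3.21 ± 0.21 in Slug cells and -3.22 ± 0.01 in E47 cells (SD, n = 2 each), which is 7.35-fold, 9.22-fold and 9.29-fold below control. Clone 2 averaged -4.13 ± 0.27 in Snail cells, -4.12 ± 0.26 in Slug cells and -4.18 ± 0.08 in E47 cells (SD, n = 2 each), or 17.6-fold, 17.3-fold and 18.1-fold below control. These are descriptions without a test, because CDH1 set the sign. In RNA of whole cultures, fewer cells that express a gene and less of its RNA per cell cannot be told apart.

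Array by array, the mean of the spots of clone 1 was -2.36, -2.89, -2.92 and -3.34 in Snail cells, in the order sample 1 titled Cy3, sample 1 titled Cy5, sample 2 titled Cy3 and sample 2 titled Cy5. In the same order it was -3.04, -3.67, -3.03 and -3.08 in Slug cells. In E47 cells it was -3.31, -3.12, -3.52 and -2.92. The 3 transfectants overlapped, and the highest ratio of clone 1 was that of Snail 1 titled Cy3.

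Clone 2 lay lower on the same arrays. It was -3.44, -4.45, -4.29 and -4.36 in Snail cells. It was -3.81, -4.05, -4.18 and -4.43 in Slug cells. It was -4.04, -4.45, -4.48 and -3.77 in E47 cells. Clone 2 lay below clone 1 on 12 of 12 arrays, by 0.38 to 1.56 with a median difference of -1.05, so the fold change read for CDH1 depended on the clone. Spot 842 was -2.40, -2.37, -2.24 and -3.11 in Snail cells, -3.17, -3.88, -3.22 and -3.06 in Slug cells, and displaced, -3.43, -3.68 and -3.03 in E47 cells. Spot 12167 was -2.31, -3.41, -3.60 and -3.57 in Snail cells, -2.91, -3.46, -2.83 and -3.11 in Slug cells, and -3.31, -2.81, -3.35 and -2.82 in E47 cells. All 23 used values of clone 1 lay below 0, and its spots differed most on Snail 2 titled Cy3, by 1.36. Spot 1882 was -3.59, -4.29, displaced and -4.25 in Snail cells, -3.32, -3.90, -4.47 and -4.64 in Slug cells, and displaced, -4.32, -4.57 and -3.99 in E47 cells. Spot 11231 was -3.29, -4.61, -4.29 and -4.47 in Snail cells, -4.29, -4.21, -3.88 and -4.21 in Slug cells, and -4.04, -4.57, -4.38 and -3.54 in E47 cells. All 22 used values of clone 2 lay below 0 too, with a largest difference between spots of 0.97. Over the 12 arrays, which share samples and control, the clones correlated at r = 0.51.

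CDH1 clone 3 did not share the low ratios. It averaged 0.17 ± 0.07 in Snail cells, 0.30 ± 0.08 in Slug cells and 0.21 ± 0.09 in E47 cells (SD, n = 2 each). Array by array it was -0.02, 0.45, 0.22 and 0.01 in Snail cells, 0.33, 0.14, -0.20 and 0.91 in Slug cells, and -0.37, 0.65, 0.33 and 0.21 in E47 cells. These lay on both sides of 0 in every transfectant. Spot 3604 was -0.05, 0.50, displaced and -0.15 in Snail cells, 0.82, 0.14, displaced and 0.91 in Slug cells, and displaced, empty, 0.45 and 0.31 in E47 cells. Spot 9493 was 0.01, 0.40, 0.22 and 0.17 in Snail cells, -0.16, displaced, -0.20 and displaced in Slug cells, and -0.37, 0.65, 0.21 and 0.11 in E47 cells. Its spot values ran from -0.15 to 0.50 in Snail cells, from -0.20 to 0.91 in Slug cells and from -0.37 to 0.65 in E47 cells. Clones 1 and 2 lay below clone 3 on 12 of 12 arrays, clone 1 by a median difference of -3.34 and clone 2 by -4.28. The spots of clone 3 also differed from each other by up to 0.98 on an array (Slug 1 titled Cy3), with a median of 0.22 over the 6 arrays that held both. A mean over the CDH1 clones therefore understates clones 1 and 2: at the level of genes, CDH1 came to -2.28 in Snail cells, -2.34 in Slug cells and -2.40 in E47 cells. The sequences of the clones were not analysed here. How each human clone matches the dog gene was not tested, for CDH1, CDH2 or CDH6.

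**Figure D2:**
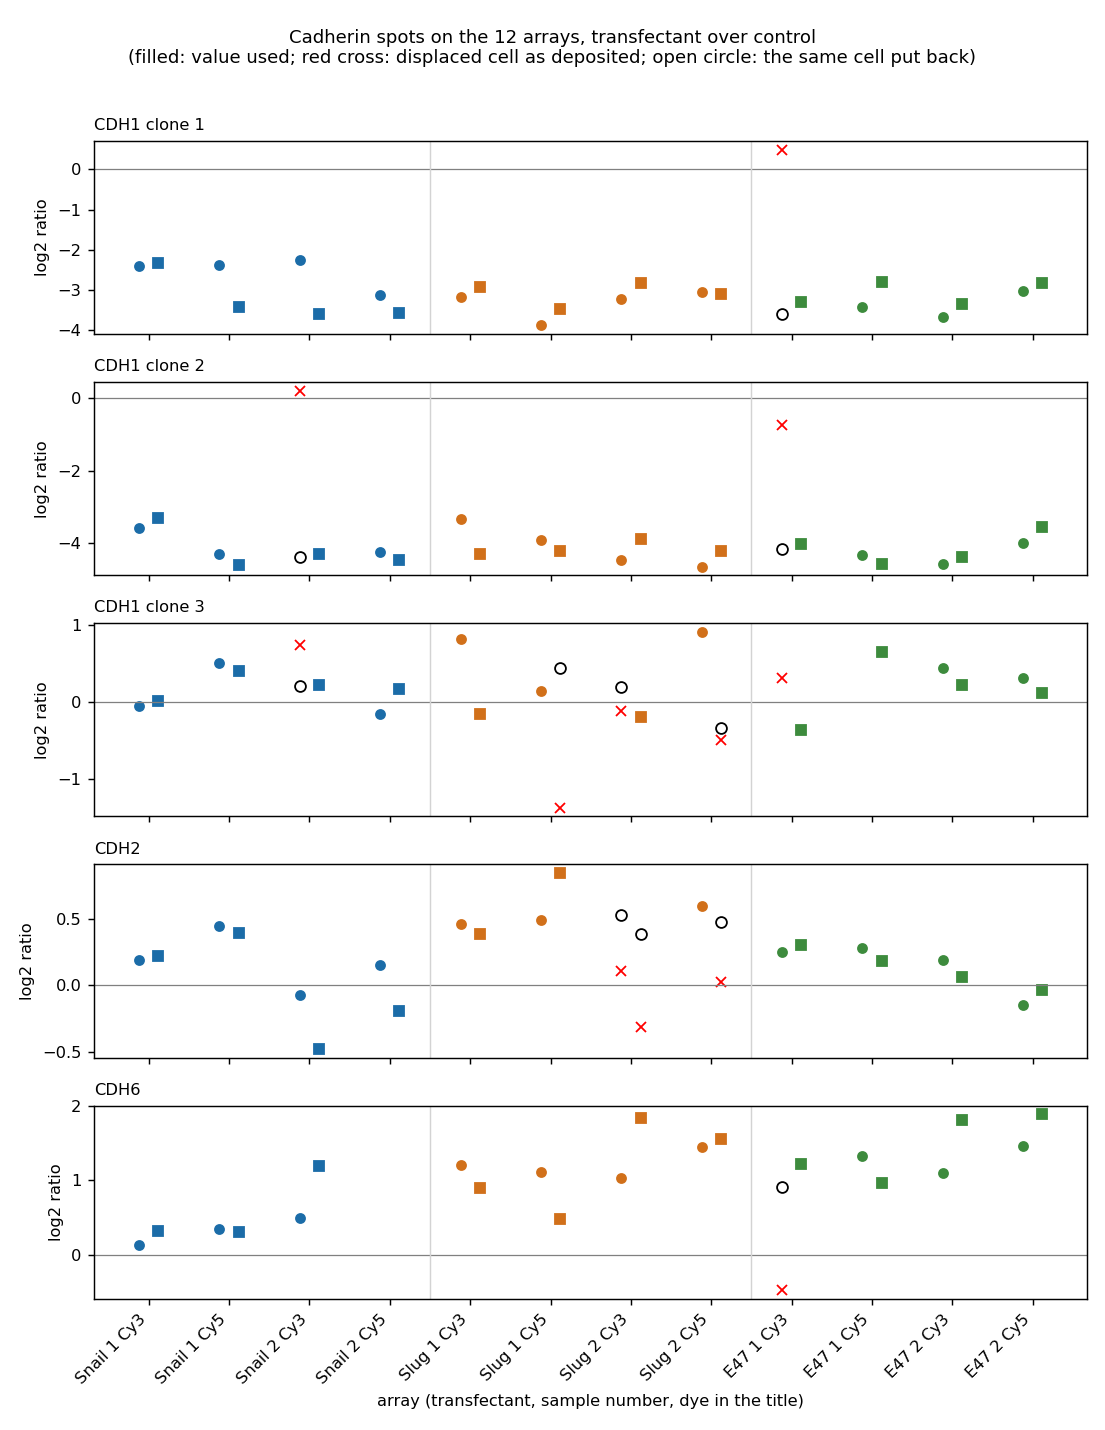
Log2 ratio of transfectant over control (vertical axes, a scale per panel) of the 10 cadherin spots on the 12 arrays (horizontal axis). Filled circles and squares are the paired spots of a clone, coloured by transfectant; red crosses are the displaced cells as deposited, and open circles the same cells put back. The used values of CDH1 clones 1 and 2 lie between -4.64 and -2.24 on all arrays, those of clone 3 between -0.37 and 0.91, and those of CDH6 between 0.13 and 1.88.

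The transfectants were set against each other for each CDH1 clone in the fit over all clones. Clones past an adjusted p of 0.05 made up 31.2% of those tested between Snail and Slug (11.8% higher and 19.4% lower in Snail), 12.2% between Snail and E47 (2.25% higher and 9.91% lower in Snail) and 10.5% between Slug and E47 (4.99% higher and 5.48% lower in Slug). None of the 9 CDH1 differences passed. The largest was that of clone 1 between Snail and E47 (0.34, 95% interval from -0.12 to 0.79, adjusted p = 0.334), close to that between Snail and Slug (0.33, from -0.13 to 0.78, adjusted p = 0.252). For clone 2 the Snail minus Slug difference was -0.02 (from -0.46 to 0.42, adjusted p = 0.955), and the differences from E47 were 0.05 for Snail and 0.07 for Slug. These intervals leave room for differences of up to about the size of their bounds, so like ratios were not shown to be equal.

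Of 22 alternative tests each, 1 gave a call for clone 2 between Snail and Slug, for clone 2 between Slug and E47 and for clone 1 between Slug and E47, in each case the setting with arrays scaled to a common spread. Slug arrays had the widest ratios: the median size of a ratio over all clones was 0.29 in Slug cells, against 0.19 in Snail cells and 0.16 in E47 cells. When each array was scaled to a common spread, CDH1 clone 2 was at -1.07 for Snail minus Slug (adjusted p = 0.00372) and at 1.37 for Slug minus E47 (adjusted p = 0.00657), and clone 1 was at 1.05 for Slug minus E47 (adjusted p = 0.0222). After quantile normalization, which also equalises the width of the arrays, the same differences were -0.21 (adjusted p = 0.452), 0.17 (adjusted p = 0.716) and 0.20 (adjusted p = 0.66), and none passed.

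CDH6 stood on the side of 0 opposite to CDH1 clones 1 and 2 in every value used, 21 of 21 spot values over 11 arrays. Cadherin-6 is the type II cadherin of developing renal tubules. The mean over its spots was 1.05, 0.79, 1.43 and 1.50 in Slug cells (sample 1 titled Cy3 and Cy5, then sample 2 titled Cy3 and Cy5). In E47 cells it was 1.22, 1.14, 1.45 and 1.67. In Snail cells it was 0.22 and 0.32 for sample 1 and 0.84 for the array of sample 2 titled Cy3, and both spots were empty on the array titled Cy5. Spot 504 was 0.13, 0.34, 0.49 and empty in Snail cells, 1.20, 1.11, 1.02 and 1.45 in Slug cells, and displaced, 1.33, 1.09 and 1.45 in E47 cells. Spot 12561 was 0.32, 0.30, 1.19 and empty in Snail cells, 0.89, 0.48, 1.83 and 1.55 in Slug cells, and 1.22, 0.96, 1.81 and 1.88 in E47 cells. As means over spots, the Snail and Slug arrays overlapped only at the Snail 2 value, and all Snail values lay below all E47 values.

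CDH6 rose by 1.19 in Slug cells (replicate values 0.92 and 1.46; SE 0.16, 95% interval from 0.83 to 1.55, adjusted p = 0.000272), which is 2.28-fold. Of the 2681 clones tested in Slug cells, 39.6% passed this threshold, 21.1% higher and 18.5% lower. It rose by 1.37 in E47 cells (1.18 and 1.56; SE 0.16, from 1.01 to 1.73, adjusted p = 0.00046), or 2.59-fold, where 13.3% of 4060 clones passed, 8.79% higher and 4.53% lower. In a fit without moderation neither rise passed, as given further below. The CDH6 spots agreed in side but not closely in size, with a median difference of 0.40 and a largest of 0.81 (Slug 2 titled Cy3). With the rows as deposited the E47 value was 1.16 (adjusted p = 0.028; 3.73% of clones higher), and with the displaced cell put back it was 1.33 (adjusted p = 0.00243; 8.2% of clones higher).

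For CDH6 in Snail cells sample 1 alone had both arrays, with a value of 0.27. When 1 array was enough for a replicate value, the mean was 0.56 (from 0.14 to 0.97, adjusted p = 0.0779), which did not pass where 4.61% of clones were higher. Between Slug and E47 the difference of -0.18 (from -0.69 to 0.33, adjusted p = 0.688) did not pass either. Snail minus Slug was -0.92 and Snail minus E47 was -1.10 with the single Snail sample. With 1 array enough they were -0.63 (adjusted p = 0.102; 17.6% of clones lower) and -0.81 (adjusted p = 0.0839; 7.29% lower). They passed in a pair of alternatives: with Snail 2 left out for all clones, where the lone Snail sample is assumed to vary like the other groups (adjusted p = 0.0206 for both), and with the 12 arrays fitted singly and the sample as a random block (-0.72, adjusted p = 0.0173, and -0.90, adjusted p = 0.00981). A lower CDH6 ratio in Snail cells than in Slug or E47 cells was therefore called under some settings and not under others. The random-block fit used 1 correlation for all clones, 0.0461, and so counted the 2 arrays of a sample nearly as separate replicates.

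CDH2, the gene of N-cadherin, had small ratios in all transfectants, read from 1 human clone. For CDH1, clone 3 averaged 0.17 to 0.30 where clones 1 and 2 averaged -4.18 to -2.88. Small ratios of 1 clone therefore do not show that the RNA of CDH2 was unchanged. The mean over the CDH2 spots was 0.20, 0.42, -0.27 and -0.02 in Snail cells (sample 1 titled Cy3 and Cy5, then sample 2). It was 0.42 and 0.66 for Slug 1 and 0.60 for Slug 2 titled Cy5, where 1 spot was left, and both spots were displaced on Slug 2 titled Cy3. It was 0.28, 0.23, 0.13 and -0.09 in E47 cells. Spot 6223 was 0.19, 0.44, -0.07 and 0.15 in Snail cells, 0.46, 0.49, displaced and 0.60 in Slug cells, and 0.25, 0.28, 0.19 and -0.15 in E47 cells. Spot 6858 was 0.22, 0.40, -0.47 and -0.19 in Snail cells, 0.38, 0.84, displaced and displaced in Slug cells, and 0.30, 0.18, 0.06 and -0.03 in E47 cells. As means over spots, the Slug values reached from 0.42 to 0.66; the highest Snail value, 0.42, met the lowest of them, and all E47 values were lower.

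Of the 4008 clones tested in Snail cells 17.9% passed, 5.94% higher and 12% lower. CDH2 did not pass in Snail cells (0.08, replicate values 0.31 and -0.15, 95% interval from -0.24 to 0.41, adjusted p = 0.745) or in E47 cells (0.13, 0.25 and 0.02, from -0.19 to 0.46, adjusted p = 0.638). In Slug cells 1 sample had both arrays, at 0.54, and the call depended on the displaced cells. With the cells put back CDH2 was at 0.52 (0.54 and 0.50; SE 0.13, from 0.21 to 0.82, adjusted p = 0.0138), 1.43-fold above control, in a comparison where 22.2% of 4866 clones were higher. With 1 array enough for a replicate value it was at 0.57 (adjusted p = 0.0131; 19.7% of 4649 clones higher). With the rows as deposited it was at 0.32 (adjusted p = 0.204; 12.3% of clones higher). In all 8 spot values after putting back, CDH2 in Slug cells lay between 0.38 and 0.84, against -0.47 to 0.44 in Snail cells and -0.15 to 0.30 in E47 cells.

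Between transfectants no CDH2 difference passed. Snail minus E47 was -0.05 (from -0.51 to 0.41, adjusted p = 0.916). With the cells put back, 32.7% of clones passed between Snail and Slug, 13.2% between Snail and E47 and 11.8% between Slug and E47. In that setting Snail minus Slug of CDH2 was -0.44 (from -0.87 to 0, adjusted p = 0.111) and Slug minus E47 was 0.38 (from -0.05 to 0.82, adjusted p = 0.235). A CDH2 ratio particular to Slug cells was thus not shown.

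All differences between transfectants assume that both carry the right sign. With 1 transfectant of a pair turned, their sizes would be 6.09 to 8.31 for CDH1 clones 1 and 2, 0.38 to 0.51 for clone 3, 1.46 to 2.56 for CDH6 and 0.21 to 0.67 for CDH2.

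**Figure D3:**
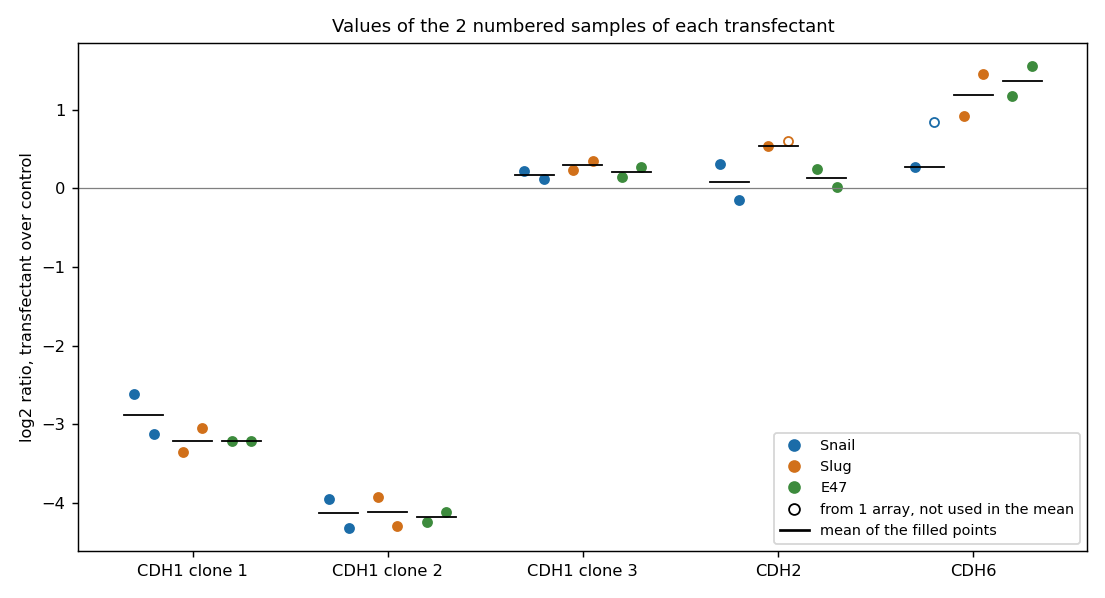
Log2 ratio of transfectant over control (vertical axis) of the 5 cadherin clones (horizontal axis), a point for each numbered sample and a bar for the mean of the filled points. Open points come from 1 array and are not in the mean. CDH6 lies at 0.27 in Snail cells, 1.19 in Slug cells and 1.37 in E47 cells, while CDH1 clones 1 and 2 lie between -4.18 and -2.88 on average and clone 3 between 0.17 and 0.30.

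**Figure D4:**
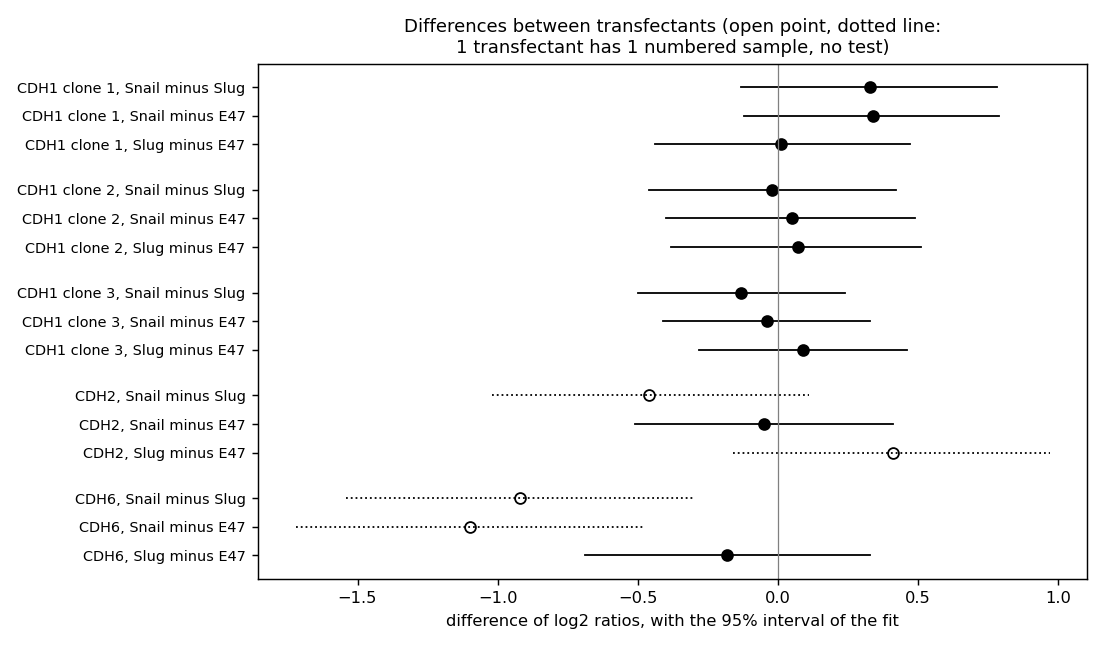
Differences of log2 ratios between transfectants (horizontal axis) with the 95% interval of the fit, for each cadherin clone and pair (vertical axis). Open points with dotted lines have 1 numbered sample in a transfectant and no test. The tested intervals all include 0, and the dotted intervals of CDH6 for Snail minus Slug (-0.92) and Snail minus E47 (-1.10) lie below 0.

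The clones most like each cadherin were ranked by the root mean square difference over the replicate values, with displaced cells put back. For CDH1 clone 1 the nearest of 4152 clones was FXYD3, a regulator of the sodium pump, at 0.35 (log2 ratios -3.37, -3.48 and -3.30 in Snail, Slug and E47 cells). IL1RN, the interleukin-1 receptor antagonist, followed at 0.51, SPP1, which encodes osteopontin, at 0.53, RGS2, a regulator of G-protein signalling, at 0.58 and FGFBP1, a binding protein of fibroblast growth factors, at 0.81. Over the 12 arrays their correlation with clone 1 was 0.53, 0.56, 0.50, 0.04 and 0.65, so a like level did not always go with a like course over the arrays. CDH1 clone 2 ranked 7, at 1.07, and clone 3 ranked 3242, at 3.32. For clone 2 the nearest were FXYD3 (0.84), SPP1 (0.95) and RGS2 (1.05), clone 1 ranked 4, and clone 3 ranked 3261.

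CDH6 had values for 5 of the 6 samples, and its nearest of 4313 clones were LAMP2, a lysosomal membrane protein (0.15), TOB1, an antiproliferative protein (0.16), ACVR1, a type I activin receptor (0.17), the pseudogene AK4P3 (0.19) and DAPK1, a death-associated kinase (0.21). Their ratios ran from 0.10 to 0.48 in Snail cells, from 1.06 to 1.42 in Slug cells and from 1.28 to 1.46 in E47 cells. Over 11 arrays they correlated with CDH6 at 0.78 to 0.94. These clones were picked for nearness on replicate values of mostly the same arrays, so a high correlation was in part built in. CDH2 lay closest to PHF13 (0.10), LGALS3BP (0.10), NHERF1, NT5C and TCF20 (0.12 each), with correlations from 0.25 to 0.85 over 12 arrays. CDH1 clone 3 lay closest to MALT1, CENPBD1P, HSPB1P2, RPP21 and SP110 (0.08 each), with correlations from -0.50 to 0.83. Near 0 many clones are alike, so nearness says little for CDH2 and for clone 3.

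Other cadherins were followed at the level of genes. Of a list of 42 cadherin, protocadherin, desmosomal and related genes, without the 3 genes above and with RET and CLSTN1, 21 were on the arrays. In Snail cells 18 were tested: FAT1, a giant atypical cadherin, rose (0.88 ± 0.27, SE, adjusted p = 0.0471), and DSG2 (-1.24 ± 0.26), CDH17 (-0.62 ± 0.12) and DSC2 (-0.47 ± 0.14) fell. Over all genes 6.02% were higher and 11.7% lower in Snail cells. The FAT1 call was lost with displaced cells put back, at 0.84. DSG2 and DSC2 encode the desmosomal cadherins desmoglein-2 and desmocollin-2, and CDH17 encodes liver-intestine cadherin.

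In Slug cells 13 of these genes were tested, of which PCDH8 (0.79 ± 0.13), CELSR3 (0.51 ± 0.12) and PCDH1 (0.43 ± 0.12) rose and DSC2 (-0.55 ± 0.14) and PCDH9 (-0.49 ± 0.14) fell, where 21.2% of all genes were higher and 19.1% lower. With displaced cells put back, where 22.6% of all genes were higher and 19.3% lower, 19 were tested, and DSG2 (-1.58 ± 0.26) and CDH17 (-0.54 ± 0.11) were also lower. In E47 cells 1 of 18 passed, DSC2 at -0.51 ± 0.14, where 8.69% of all genes were higher and 4.42% lower. The medians of the list were 0.00, -0.02 and 0.01 in Snail, Slug and E47 cells, and those of all genes were -0.06, 0.02 and 0.02. Members lay on both sides of 0, from -1.24 to 0.88 in Snail cells, from -0.55 to 0.79 in Slug cells and from -0.76 to 0.36 in E47 cells.

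**Figure D5:**
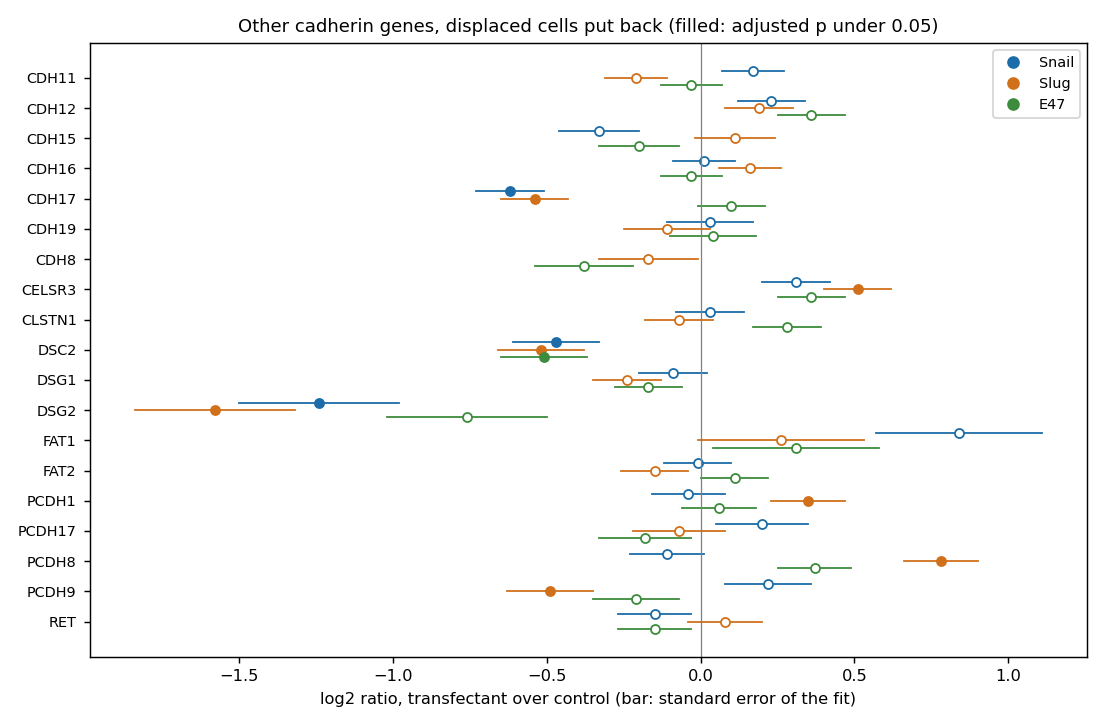
Log2 ratio of transfectant over control (horizontal axis) of the other cadherin genes tested (vertical axis), with displaced cells put back. Bars are the standard error of the fit and filled points have an adjusted p under 0.05. DSC2 lies below 0 in all 3 transfectants, DSG2 is the lowest gene at -1.24 in Snail cells and -1.58 in Slug cells, and most other points lie within 0.5 of 0.

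The cytoplasmic partners of cadherins moved in part. Of 26 catenins and adherens junction partners, 13 were on the arrays, and 2 of 13 tested rose in Snail cells, 5 of 11 in Slug cells and 2 of 12 in E47 cells, while 2, 2 and 1 fell. Over all genes 6.02%, 21.2% and 8.69% were higher in Snail, Slug and E47 cells and 11.7%, 19.1% and 4.42% lower. VCL, which encodes the junction and focal adhesion protein vinculin, rose in all (0.79 ± 0.14, 1.66 ± 0.14 and 1.24 ± 0.14). PTPRM, a receptor tyrosine phosphatase, rose in Snail (1.96 ± 0.29) and Slug cells (1.66 ± 0.29), and ACTN1, the gene of alpha-actinin-1, rose in Slug (1.57 ± 0.16) and E47 cells (1.03 ± 0.16). CTNNA1, which encodes alpha-E-catenin, fell in Snail cells (-0.86 ± 0.13), and CTNNAL1, an alpha-catenin-like gene, fell in E47 cells (-1.41 ± 0.31) and, with displaced cells put back, was also lower in Slug cells (-1.79 ± 0.32, adjusted p = 0.00236). JUP, the gene of plakoglobin, fell in Snail cells (-0.68 ± 0.16) and rose in Slug cells (0.82 ± 0.16), and CTNND1, the gene of p120-catenin, rose in Slug cells (0.97 ± 0.15). NECTIN1 and IQGAP1 fell in Slug cells (-0.37 each). The medians of the list were -0.04, 0.37 and 0.03 in Snail, Slug and E47 cells, and with displaced cells put back that of Slug was 0.03.

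Among 18 known repressors of CDH1 and their cofactors, 10 were on the arrays. To compare, 6.02%, 21.2% and 8.69% of all genes were higher in Snail, Slug and E47 cells and 11.7%, 19.1% and 4.42% lower. In Snail cells 3 of 8 tested rose, SNAI1 (1.70 ± 0.24), TCF4 (1.20 ± 0.20) and ZEB1 (0.47 ± 0.13), and HDAC2 fell (-0.43 ± 0.12). In Slug cells 4 of 5 rose: TWIST1 (1.83 ± 0.24), TCF3 (1.11 ± 0.12), EZH2 (0.98 ± 0.13) and SNAI1 (0.67 ± 0.24). In E47 cells 4 of 9 rose: TWIST1 (2.18 ± 0.24), TCF4 (1.00 ± 0.20), TCF3 (0.76 ± 0.12) and ZEB1 (0.55 ± 0.13). TCF4 and TWIST1 encode helix-loop-helix factors, ZEB1 a zinc-finger factor, and EZH2 and HDAC2 chromatin enzymes. With displaced cells put back, 6 of 10 were higher in Slug cells, against 22.6% of all genes, TCF4 (3.13 ± 0.20) and ZEB1 (1.16 ± 0.12) among them, and SNAI1 no longer passed. EZH2 was then lower in Snail cells (-0.48 ± 0.12, adjusted p = 0.0226), where 12.5% of all genes were lower. The medians were 0.19, 0.98 and 0.43 in Snail, Slug and E47 cells. SNAI1 and TCF3 are also the transfected genes of 2 of the groups, and signal of an introduced copy and of the dog gene cannot be told apart. The 3 of 8 in Snail cells include SNAI1 and the 4 of 9 in E47 cells include TCF3. A rise of the transfected gene follows from the design, so these counts cannot be set plainly against the shares of all genes.

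Of 19 genes of E-cadherin turnover and shedding, 14 were on the arrays. In Snail cells ARF6, a small GTPase of endocytosis (-0.99 ± 0.13), and PTPN11 (-0.44 ± 0.12) fell and none of 14 rose. Over all genes 11.7% were lower and 6.02% higher in Snail cells. In Slug cells PTPN1, the phosphatase PTP1B (1.73 ± 0.15), HGF, the scatter factor (0.91 ± 0.13), and RAB7A (0.84 ± 0.14) rose, and ADAM10, the sheddase of E-cadherin (-0.98 ± 0.13), and EGFR (-0.50 ± 0.14) fell, of 7 tested, where 21.2% of all genes were higher and 19.1% lower. In E47 cells PTPN1 (1.04 ± 0.15) and HGF (0.48 ± 0.13) rose of 14 tested, where 8.69% of all genes were higher. The HGF call in E47 cells was lost with displaced cells put back (0.44, adjusted p = 0.0675). The medians were 0.00, 0.07 and 0.04 in Snail, Slug and E47 cells. With displaced cells put back, 14 were tested in Slug cells, of which 5 were higher and 3 lower, where 22.6% of all genes were higher and 19.3% lower. EGFR no longer passed (-0.38, adjusted p = 0.0665), and the lower genes were ADAM10, CDC42 (-0.64 ± 0.11) and PTPN11 (-0.46 ± 0.10).

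Of 9 genes known to act with N-cadherin, 6 were on the arrays, and 5, 4 and 6 were tested in Snail, Slug and E47 cells. Over all genes 6.02%, 21.2% and 8.69% were higher in Snail, Slug and E47 cells and 11.7%, 19.1% and 4.42% lower. With displaced cells put back these shares were 6.57%, 22.6% and 8.22% higher and 12.5%, 19.3% and 5.45% lower. FGFR1, a receptor that N-cadherin binds, rose in Slug (1.48 ± 0.12) and E47 cells (0.56 ± 0.12), and so did TWIST1, given above; none of 5 passed in Snail cells. With displaced cells put back, FGFR2 passed in Snail cells (0.42 ± 0.11, adjusted p = 0.0289) and FGFR4 in Slug cells (0.94 ± 0.17, adjusted p = 0.00252). Their medians were 0.30, 0.78 and 0.26. Of 15 nephron genes, 7 were on the arrays, and 7, 4 and 7 were tested in Snail, Slug and E47 cells, to be read against the same shares. NOTCH2, a receptor of proximal tubule formation, rose in Snail (0.63 ± 0.13) and E47 cells (1.34 ± 0.13), and was at 1.25 ± 0.11 in Slug cells with displaced cells put back (adjusted p = 7.53e-05). PAX8, a transcription factor of the nephric lineage, rose in Slug cells (0.31 ± 0.11). With displaced cells put back, LHX1 was lower in Slug cells (-0.42 ± 0.14, adjusted p = 0.0349) and PAX8 lower in Snail cells (-0.35 ± 0.10, adjusted p = 0.0435). Their medians were -0.03, 0.23 and -0.04.

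Markers of cell types moved beside the cadherins, and their part in the cadherin ratios was not tested. Of 12 epithelial markers, 7 were on the arrays. Without CDH1, which set the sign, 2 of 4, 2 of 3 and 2 of 4 tested were lower in Snail, Slug and E47 cells and none higher. With displaced cells put back, 4 of 6 were lower in each transfectant and none higher. KRT18 then passed in none, KRT8 (0.23) not in Slug cells, and EPCAM not in Snail and E47 cells. In that setting 12.5%, 19.3% and 5.45% of all genes were lower in Snail, Slug and E47 cells, and 6.57%, 22.6% and 8.22% were higher. DSP, the gene of desmoplakin, was at -2.51 ± 0.12 in Snail cells, -1.67 ± 0.12 in Slug cells and -0.67 ± 0.12 in E47 cells with displaced cells left out, and KRT19, a keratin, was at -2.67 ± 0.22, -2.19 ± 0.22 and -2.15 ± 0.22 with displaced cells put back. Of 11 mesenchymal markers, 8 were on the arrays, CDH2 among them. With displaced cells left out, 3 of 7 tested were higher and 1 lower in Snail cells. In Slug cells 2 of 4 and in E47 cells 3 of 7 were higher, and none was lower. Over all genes 6.02%, 21.2% and 8.69% were higher in Snail, Slug and E47 cells and 11.7%, 19.1% and 4.42% lower. The medians of the list were 0.17, 0.91 and 0.38, and CDH11 and ACTA2 passed in no transfectant. FN1, the gene of fibronectin, rose in all (1.01 ± 0.15, 2.00 ± 0.15 and 1.33 ± 0.15), and so did COL1A2, a chain of type I collagen (1.99 ± 0.21, 1.60 ± 0.21 and 3.02 ± 0.21). SPARC, a matrix protein, rose by 5.36 ± 0.16 in Snail cells and by 4.69 ± 0.16 in E47 cells, THY1 fell in Snail cells (-0.82 ± 0.13), and CDH2 was the smallest of the mesenchymal markers that passed in Slug cells with displaced cells put back. Of 6 endothelial markers, 5 were on the arrays. TEK rose in Slug cells (0.52 ± 0.13), 1 of 3 tested, and none of 4 and of 5 passed in Snail and E47 cells. With displaced cells put back, the TEK call was lost (0.27 ± 0.17, adjusted p = 0.238). ENG was then higher in Slug cells (1.51 ± 0.22, adjusted p = 0.000806), 1 of 5 tested. Of 6 leukocyte markers, 3 were on the arrays and 2 were tested in each transfectant. PTPRC fell in Snail (-0.52 ± 0.12) and Slug cells (-1.03 ± 0.12), and none passed in E47 cells.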

How the data were processed

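The deposited table holds log2 ratios of 13056 probes on 12 arrays, as the authors deposited them; the antilogs fell on whole thousandths, and array medians lay between -0.06 and 0.06. The sources used here give no scanner, normalization or rule for empty cells. The platform annotation gave 1 symbol for 8047 probes, several for 276 and none for 4733. The cadherins, the gene lists and the signs of the arrays were chosen with earlier results of these data known.

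Pages of 110 rows whose values matched other rows were found by correlation with the other arrays of the transfectant, without the cadherin probes, in a search tested on simulated data; leaving those cells out was chosen after the data were seen. Spots were averaged to clones, the 2 arrays of a sample to 1 replicate value (both needed), and limma 3.58.1 (R 4.3.3, also tested on simulated data) fitted the 3 transfectants together, with empirical Bayes moderation. Each was tested against 0 and against each other, two-sided, where both replicates had values. The Benjamini-Hochberg adjusted p was taken over all clones tested, or over all genes for gene lists, with 0.05 as the threshold. CDH1 was not tested against 0, since it set the sign. Precision is set by the small number of arrays; spot brightness was not analysed here.

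Named by rule were every cadherin clone, the 5 clones nearest to each, and per list and direction up to 4 genes past the threshold with the largest ratios. Named beyond this rule were JUP in Slug cells, genes whose call differed with displaced cells put back, and some markers that did not pass. Alternatives covered scaling, dye, missing values, replicates, the fit, orientation and displaced rows. No sequence is shown, and SNAI2 was not analysed here.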

Additional observations from a re-analysis of the deposited data

Results flagged for a closer look

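Among 13 sets of 4 arrays (a cadherin clone in a transfectant), 2 held an array far from the other 3, by Dixon's criterion for 4 values. Chance flags about 1 in 20 such sets, and the arrays are pairs from 2 samples. CDH1 clone 1 was at -3.67 on the Slug 1 array titled Cy5, below the other Slug arrays (-3.08 to -3.03). CDH1 clone 2 was at -3.44 on the Snail 1 array titled Cy3, above the other Snail arrays (-4.45 to -4.29). The causes were not tested.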

How the results depend on the processing

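The 30 cadherin results had 652 values under alternatives. Of these, 560 kept their direction and side of the threshold (or stayed within the replicate spread). A further 53 were counted as turned in sign, 33 as moved further, 3 as dropped below the threshold and 3 as risen past it. For CDH2 and CDH6 results left untested for want of a replicate value, a turned sign was counted among those that moved further. CDH6 passed in 20 of 22 alternative tests in Slug cells (adjusted p from 7.62e-06 to 0.996) and in 20 of 22 in E47 cells (7.02e-06 to 0.557). The exceptions were the fit without moderation (1.19, adjusted p = 0.114, and 1.37, adjusted p = 0.207) and signs taken from the labels' dyes. CDH2 in Slug cells had no test in the main fit, for want of a replicate value, and passed in 5 of 7 alternative tests. It did not pass with rows as deposited (adjusted p = 0.204). The settings with rows as deposited or cells put back were chosen after the data were seen. The causes of these changes were not tested. Empty cells, displaced cells and 2 samples per transfectant limit the tests. The gene-level setting could not be used for single CDH1 clones.

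With signs from the labels' dyes no clone passed in any comparison (unadjusted p under 0.05 in 51, 174 and 362 clones for Snail, Slug and E47 against control, and in 60, 73 and 124 for Snail against Slug, Snail against E47 and Slug against E47). CDH6 was then at 0.0832 in Slug and -0.80 in E47 cells, CDH1 clone 1 at 0.14 in Slug and 1.66 in E47 cells, clone 2 at 1.96 in E47 cells, and CDH2 at -0.0096, -0.12 and -0.0206 in Snail, Slug and E47 cells. Snail minus Slug was -0.0337 for CDH6, -0.17 for CDH1 clone 1 and 0.11 for CDH2. Snail minus E47 was 0.85 for CDH6, -1.69, -2.19 and 0.051 for CDH1 clones 1, 2 and 3, and 0.0109 for CDH2. Slug minus E47 was 0.88 for CDH6, -1.52 and -1.96 for CDH1 clones 1 and 2, and -0.10 for CDH2.

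With rows as deposited, 348, 243, 146 and 41 clones passed for Snail, E47, Snail against E47 and Slug against E47. CDH1 clone 3 was at -0.0586 in Slug cells. Snail minus Slug was 0.54 for CDH1 clone 2 and 0.29 for clone 3, Snail minus E47 was -0.13 for clone 1, and Slug minus E47 was 0.0326 for CDH6, -0.46, -0.35 and -0.35 for CDH1 clones 1, 2 and 3, and 0.19 for CDH2. Put back, 2000, 1447 and 547 clones passed for Slug, Snail against Slug and Slug against E47, and 1995, 1424 and 499 with 1 array enough as well (CDH6 Snail minus E47 -0.77). These 3 settings were chosen after seeing the data. With 1 array enough alone the counts were 1707, 1197 and 417, and that CDH6 difference was -0.81.

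Arrays titled Cy5 alone gave 372 clones for Snail and 141 for Snail against E47, with Snail minus E47 at -0.10 and -0.30 for CDH1 clones 1 and 2 and 0.13 for CDH2, and Slug minus E47 at -0.36 and -0.13 for CDH1 clones 1 and 2. Arrays titled Cy3 alone gave 302, 257, 127 and 62 clones for Snail, E47, Snail against E47 and Slug against E47. CDH2 was then at -0.0344 in Snail cells and CDH1 clone 3 at -0.018 in E47 cells; Snail minus Slug was 0.13 for clone 2 and 0.0362 for clone 3, Snail minus E47 was -0.80 for CDH6 and 0.12 for clone 3, and Slug minus E47 was 0.22 for CDH2. Clones complete on 12 arrays gave 392 for Snail. Without moderation the counts were 0, 362 and 0 for Snail, Slug and E47 (868 and 746 at an unadjusted p under 0.05 for the zeros) and 171, 0 and 0 for Snail against Slug, Snail against E47 and Slug against E47 (713 and 432). The sample as a random block gave 1787, 854, 1354, 774 and 623 for Slug, E47, Snail against Slug, Snail against E47 and Slug against E47.

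With arrays scaled to a common spread, Snail minus Slug was -0.47 and -1.07 and Slug minus E47 was 1.05 and 1.37 for CDH1 clones 1 and 2, and 66 clones passed for Slug against E47 (82 with each spot a feature, 72 after quantile normalization). Snail minus Slug for clone 2 was 0.0625 with each spot a feature and 0.0384 with medians subtracted, when Snail minus E47 was 0.0197 for clone 3 and 0.0079 for CDH2. Quantile normalization gave 0.0126 for clone 3 in Snail minus Slug, and -0.0403 and 0.0267 for clones 2 and 3 in Snail minus E47.

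With the replicate number as a block, CDH6 was at 1.19 in Slug cells (adjusted p = 1.83e-05) and 1.37 in E47 cells (adjusted p = 2.39e-05), no cadherin call changed, and CDH2 Slug minus E47 was 0.23. The replicate differences of 2 transfectants correlated at 0.101 to 0.26 over clones; with 2 numbers the samples share only a number.

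Leaving out 1 sample at a time gave 413 to 708 clones for Snail (lowest without Snail 2), 514 to 1219 for Slug (lowest without Slug 1), 196 to 762 for E47 (lowest without E47 2), 373 to 727 for Snail against Slug (lowest without Slug 1), 175 to 472 for Snail against E47 (lowest without E47 2) and 21 to 318 for Slug against E47 (21 without Slug 1, 99 without Slug 2 and 113 without E47 1). CDH2 in Snail cells ranged from -0.15 to 0.31. Snail minus Slug ranged from -0.21 to 0.17 for CDH1 clone 2. Snail minus E47 ranged from -0.14 to 0.235 for clone 2, -0.10 to 0.0241 for clone 3 and -0.28 to 0.18 for CDH2. Slug minus E47 ranged from -0.45 to 0.0925 for CDH6, -0.14 to 0.16 for CDH1 clone 1 and -0.12 to 0.25 for clone 2.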

Other observations

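The displaced rows touched genes beyond the cadherins, of which 2 are given here and were chosen after their values were seen. SPARC, at 3.78 and 4.57 on the Slug 1 arrays (titled Cy3 and Cy5), read -0.74 and -0.59 on the Slug 2 arrays as deposited and 3.36 and 4.10 after the displaced cells were put back. Its ratio in Slug cells was then 3.95, on the same side as in Snail (5.36) and E47 cells (4.69). CALD1, which encodes the actin-binding protein caldesmon, read 3.88 on the Slug 1 array titled Cy3, and 0.04, -0.41 and -0.86 on the other Slug arrays as deposited. Put back, it read 4.29 on Slug 1 titled Cy5 and 4.12 on Slug 2 titled Cy5, and was empty on Slug 2 titled Cy3.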
